A study of Mus musculus with 6 samples.

Results

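The 10 genes described here encode the machinery that shortens the poly(A) tails of maternal mRNAs and hands these mRNAs to decay. They are the adaptor *Btg4*, the scaffold subunit *Cnot1* and the catalytic subunits *Cnot6*, *Cnot6l*, *Cnot7* and *Cnot8* of the CCR4-NOT complex, the RNA-binding recruiter *Zfp36l2*, both parts of the PAN2-PAN3 deadenylase, *Pan2* and *Pan3*, and the nuclease gene *Parn*. They were taken by gene symbol from a count table of 53465 mouse genes, and all 10 symbols were found there.

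RNA sequencing was done on oocytes at metaphase of the second meiotic division (M II) from naturally aged female mice of the Kunming (KM) strain, 9 to 10 months old. The control group comprised 3 pools of oocytes matured in vitro (IVM) in M16 medium without quercetin. The quercetin group comprised 3 pools matured with 10 μM quercetin, a plant flavonol that was dissolved in DMSO. Each pool joined 15 oocytes of 3 mice, so values are those of pools, and whether mice were shared between the groups is not given in the sources used here. The mice had been primed with pregnant mare serum gonadotropin and cumulus cells had been pipetted off. Maturation in the study was scored after 16 h, and the hour at which the sequenced pools were collected is not given in the sources used here.

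Fully grown oocytes hardly transcribe, and their mRNA levels in meiotic maturation are set mainly by storage, tail length and decay. PAN2-PAN3 and CCR4-NOT remove poly(A) tails, after which decapping and degradation from the 5′ end usually follow. BTG4 binds CNOT7 or CNOT8 and brings the complex to maternal mRNAs, and the mRNAs of *Btg4*, *Cnot6l* and *Cnot7* are themselves known to be stored in the immature oocyte and translated when meiosis resumes.

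Total counts were 8671210, 7880467 and 8905681 in control pools 1 to 3, and 8465142, 9938743 and 8109613 in quercetin pools 1 to 3. Levels are given as counts per 1000000 counts of a pool (CPM) after TMM scaling, and on that scale 3 counts correspond to between 0.329 and 0.376 CPM. The libraries were primed on poly(A) tails and carry no molecular identifiers, so this floor covers counting error only. In bulk pools, fewer cells that carry a transcript and less of that transcript per cell cannot be told apart.

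The deadenylation genes gave no difference between quercetin and control that passed the test. Of the 10 genes, 9 had enough counts to be tested, and edgeR's quasi-likelihood test called 0 of them, where a call needed a fold change over 2 together with an adjusted p under 0.05, beside 0 of all 11842 tested genes (0%). At an unadjusted p under 0.05 stood 0 of the 9, beside 477 of all tested genes (4.03%). By the same criteria for a call, DESeq2 gave 12 genes across the table, edgeR's likelihood ratio test 16 and limma-voom 0, and 0 of the 9 in each case. The pools of the groups overlapped for all 9, whereas 5.42% of all tested genes had all quercetin pools above all control pools and 5.17% had them all below. The estimated log2 fold changes of the 9 ran from -0.18 (*Cnot1*) to 0.31 (*Pan3*). Positive estimates were found for 6 of the 9, with a median of 0.12, beside 46.4% positive and a median of -0.026 over all tested genes. With library size alone as scaling these medians were 0.030 and -0.11. With size factors from DESeq2 in place of TMM the estimate of *Parn* turned positive, which gave 7 of 9.

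The levels of the 10 genes spanned a wide range. Levels per kilobase of exon put genes of unlike length on one scale. The libraries were primed on poly(A) tails, and the part of tail length in the order below was not tested. *Btg4* was highest with a mean of 4422 CPM per kb over the 6 pools, and *Cnot7* followed with 351 CPM per kb. *Cnot6l* (90.9 CPM per kb) and *Cnot8* (79.0 CPM per kb) came next, and their pools overlapped. *Pan2* stood at 18.8 CPM per kb, followed by *Cnot6* at 9.00 and *Pan3* at 8.09 CPM per kb, a pair whose pools overlapped. *Parn* at 1.71 and *Cnot1* at 1.37 CPM per kb also overlapped, and *Zfp36l2* was lowest at 0.243 CPM per kb. All other neighbours in this order had separate ranges over the 6 pools. With the length of the longest transcript, or of the principal coding transcript (the latter chosen after seeing the data), 8 of 10 genes kept their place, and *Cnot6* and *Pan3* changed places. The levels themselves depended on the length used. Per kilobase of the principal coding transcript, *Btg4* stood at 7606, *Cnot7* at 686, *Cnot6* at 23.8 and *Pan3* at 24.0 CPM per kb. The level of *Zfp36l2* was unchanged at 0.243 CPM per kb.

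**Figure D1:**
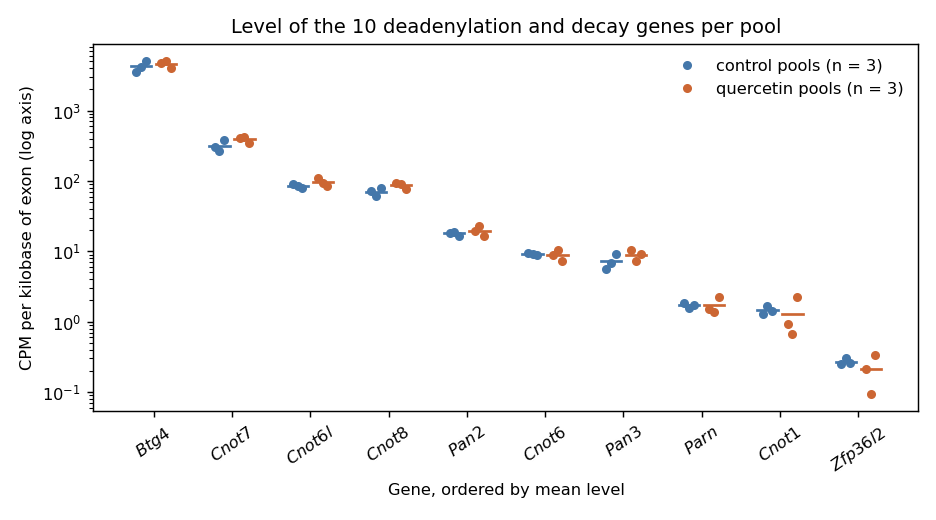
Level of each of the 10 genes in CPM per kilobase of exon on a log axis, with genes on the horizontal axis in order of their mean, a point for each of 3 control and 3 quercetin pools, and a short line for each group's mean. *Btg4* lies between 3516 and 5105 CPM per kb and *Zfp36l2* between 0.0932 and 0.333 CPM per kb, and the points of both groups overlap for every gene.

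*Btg4* (ENSMUSG00000032056, chromosome 9, 51060901 to 51119875, plus strand, GRCm38), the adaptor of the BTG/TOB family, was among the most abundant transcripts in these libraries. It took between 0.924% and 1.30% of the counts of a pool and ranked 3 among the tested genes by CPM and 41 by CPM per kb. Its level was 8986, 10479 and 13048 CPM in control pools 1 to 3, and 12106, 12888 and 10307 CPM in quercetin pools 1 to 3. The highest and the lowest value both belonged to control pools, and the quercetin pools lay between them. Means were 10838 ± 2055 CPM in control and 11767 ± 1323 CPM with quercetin (SD, n = 3 pools each). The log2 fold change of 0.12 ± 0.18 (SE) had a 95% interval from -0.28 to 0.52, with an adjusted p of 0.988 in edgeR and an exact permutation p of 0.7. It was 0.0026 without control pool 1 and 0.28 without control pool 3. The exact permutation tests here are two-sided over pools and cannot go under 0.1 with 3 pools against 3.

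The CCR4-NOT complex holds a nuclease of the CAF1 type, encoded by *Cnot7* or *Cnot8*, and a nuclease of the CCR4 type, encoded by *Cnot6* or *Cnot6l*. *Cnot7* (ENSMUSG00000031601, chromosome 8, 40492540 to 40515847, minus strand) was at 1772, 1536 and 2201 CPM in control pools 1 to 3 and at 2364, 2408 and 1994 CPM in quercetin pools 1 to 3. Quercetin pools 1 and 2 lay above all control pools, while quercetin pool 3 lay below control pool 3. The group means were 1836 ± 337 and 2255 ± 227 CPM (SD, n = 3 each), a log2 fold change of 0.30 ± 0.17 (SE), which did not pass the test (edgeR adjusted p = 0.988, exact permutation p = 0.2).

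*Cnot8* (ENSMUSG00000020515, chromosome 11, 58104153 to 58118594, plus strand), the paralogue of *Cnot7*, was at 192, 159 and 206 CPM in control pools 1 to 3 and at 249.5, 240.5 and 201.5 CPM in quercetin pools 1 to 3. The same arrangement was seen as for *Cnot7*, with quercetin pools 1 and 2 above all controls and quercetin pool 3 just under control pool 3. Its log2 fold change was 0.31 ± 0.16 (SE), a 1.24-fold difference with a 95% interval from 0.970 to 1.59, and its unadjusted p of 0.0785 in edgeR was the smallest of the 9 tested genes (adjusted p = 0.988). Per kilobase, *Cnot7* exceeded *Cnot8* 4.18-, 4.37- and 4.83-fold in control pools 1 to 3, and 4.29-, 4.53- and 4.48-fold in quercetin pools 1 to 3. The mean log2 ratio was 2.15 in both groups, a difference of -0.0057 (quercetin minus control, exact permutation p = 1 before and after adjustment over 2 ratios), so the balance of the CAF1-type transcripts differed by less than the spread between pools.

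*Cnot6l* (ENSMUSG00000034724, chromosome 5, 96070333 to 96164171, minus strand), the more abundant CCR4-type gene, was at 932, 873 and 823 CPM in control pools 1 to 3 and at 1135, 973 and 887 CPM in quercetin pools 1 to 3. Quercetin pools 1 and 2 exceeded all controls, and quercetin pool 3 lay between control pools 1 and 2. The log2 fold change of 0.19 ± 0.14 (SE) did not pass the test (edgeR adjusted p = 0.988, exact permutation p = 0.2). *Cnot6* (ENSMUSG00000020362, chromosome 11, 49671503 to 49712723, minus strand) was at 62.5, 60.6 and 58.2 CPM in control pools 1 to 3 and at 58.0, 68.9 and 48.7 CPM in quercetin pools 1 to 3. The control pools lay close together, with quercetin pool 2 above and quercetin pools 1 and 3 below them, and the log2 fold change was -0.045 ± 0.18 (SE).

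Per kilobase, *Cnot6l* exceeded *Cnot6* 9.56-, 9.23- and 9.07-fold in control pools 1 to 3 and 12.5-, 9.06- and 11.7-fold in quercetin pools 1 to 3. The log2 ratio was 3.21 ± 0.038 in control and 3.46 ± 0.25 with quercetin (SD, n = 3 each), a difference of 0.24 (exact permutation p = 0.4, adjusted over 2 ratios 0.8). The difference was 0.15 without quercetin pool 1 and 0.38 without quercetin pool 2. The pools overlapped in this ratio, since quercetin pool 2 was the lowest of all 6. The size of both ratios depended on the length used, with mean folds of 10.1 for *Cnot6l* over *Cnot6* and 4.44 for *Cnot7* over *Cnot8* per kilobase of exon, and 4.60 and 6.91 per kilobase of the principal coding transcript.

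*Cnot1* (ENSMUSG00000036550, chromosome 8, 95719451 to 95807464, minus strand) encodes the scaffold on which the CCR4-NOT complex is built. It had 200, 236 and 217 counts in control pools 1 to 3 and 129, 104 and 330 counts in quercetin pools 1 to 3. Quercetin pools 1 and 2 were the lowest of the 6 and quercetin pool 3 the highest. The means were 25.1 ± 3.02 CPM in control and 22.1 ± 14.7 CPM with quercetin (SD, n = 3 each). The log2 fold change of -0.18 ± 0.40 (SE) had the widest 95% interval of the 9 tested genes, from -1.09 to 0.73 (edgeR adjusted p = 0.993).

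*Pan2* (ENSMUSG00000005682, chromosome 10, 128303335 to 128321358, plus strand), the catalytic subunit of PAN2-PAN3, was at 155, 162 and 142 CPM in control pools 1 to 3 and at 163, 193 and 141 CPM in quercetin pools 1 to 3. Quercetin pool 2 was the highest and quercetin pool 3 the lowest of all pools, and the log2 fold change was 0.12 ± 0.16 (SE). *Pan3* (ENSMUSG00000029647, chromosome 5, 147430161 to 147548502, plus strand), the subunit that binds RNA and poly(A)-binding protein, was at 82.9, 103 and 138 CPM in control pools 1 to 3 and at 156, 110.2 and 136 CPM in quercetin pools 1 to 3. Control pools 1 and 2 were the lowest and quercetin pool 1 the highest, while control pool 3 lay above quercetin pools 2 and 3. Its log2 fold change of 0.31 ± 0.21 (SE), 1.24-fold with a 95% interval from 0.889 to 1.74, did not pass the test (edgeR adjusted p = 0.988, exact permutation p = 0.3).

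*Parn* (ENSMUSG00000022685, chromosome 16, 13537960 to 13668170, minus strand), a cap-binding deadenylase outside both complexes, had 89, 69 and 83 counts in control pools 1 to 3 and 66, 68 and 101 counts in quercetin pools 1 to 3. Quercetin pool 3 was again the highest and quercetin pool 2 the lowest in CPM, and the group means were 9.21 ± 0.853 and 9.20 ± 2.36 CPM (SD, n = 3 each). The log2 fold change was -0.0011 ± 0.26 (SE), with a 95% interval from -0.59 to 0.58.

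*Zfp36l2* (ENSMUSG00000045817, chromosome 17, 84183931 to 84187947, minus strand) encodes a zinc finger protein that binds AU-rich elements and recruits CCR4-NOT. It had 8, 9 and 8 counts in control pools 1 to 3 and 6, 3 and 10 counts in quercetin pools 1 to 3. These counts were too low for the filter, so the gene was not among the 11842 tested. Without the filter, edgeR estimated a log2 fold change of -0.34 ± 0.58 (SE), with a 95% interval from -1.60 to 0.92 and an adjusted p of 0.943 over 24476 genes. The means were 0.960 ± 0.106 and 0.753 ± 0.424 CPM (SD, n = 3 each), the pools overlapped (exact permutation p = 0.5), and a difference between the groups was not detected.

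**Figure D2:**
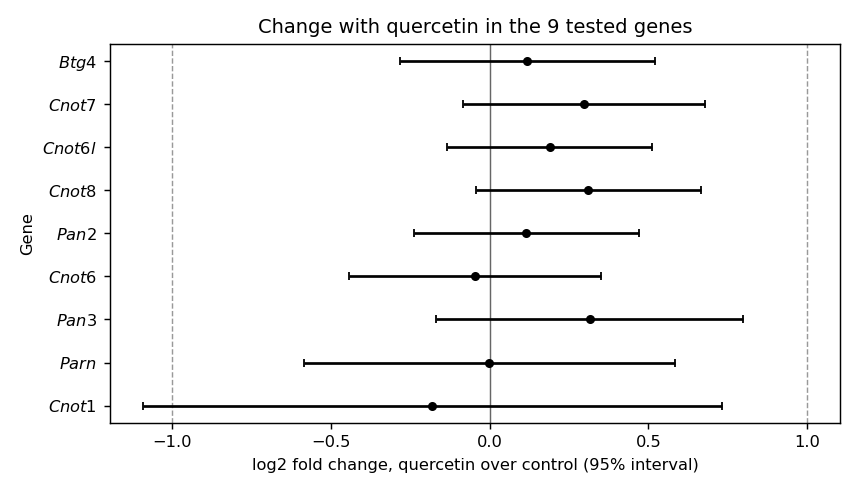
Log2 fold change of quercetin over control for the 9 tested genes on the horizontal axis, with points for the edgeR estimates, bars for their 95% intervals and dashed lines at a fold change of 2 in either direction. Every interval includes 0, and the lowest bound, at -1.09, belongs to *Cnot1*.

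Single pools weighed on these counts. Without quercetin pool 3, the pools of *Cnot6l*, *Cnot7*, *Cnot8* and *Pan2* lay wholly above the controls, 4 of 9 beside 14.3% of all tested genes, and those of *Cnot1* and *Parn* wholly below, 2 of 9 beside 17.4%. In the same comparison 3 of 9 had an unadjusted p under 0.05, beside 12.8% of all genes. These were *Cnot1* (log2 fold change -0.86), *Cnot7* (0.38) and *Cnot8* (0.40), and the smallest adjusted p of the 9 in edgeR was 0.251, that of *Cnot1*. Without control pool 3, *Cnot7*, *Cnot8* and *Pan3* lay wholly above the controls, 3 of 9 beside 11.1%, and *Cnot7* and *Pan3* had an unadjusted p under 0.05, 2 of 9 beside 3.51%. Without control pool 1 only *Cnot6l* was separate, higher with quercetin (1 of 9 beside 10.4%), and without quercetin pool 2 only *Cnot6*, lower with quercetin (1 of 9 beside 9.46%). Without control pool 2 or quercetin pool 1 the pools of all 9 genes overlapped. With library size alone as scaling and all pools kept, *Cnot8* lay wholly above the controls (1 of 9 beside 3.88%). Whether anything in the handling of quercetin pool 3 set it apart was not tested.

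Some of these genes share sequence with other genes, and how reads matching several genes or overlapping genes were counted is not given in the sources used here. Of the 31-base words in *Cnot8* transcripts, 11.7% also occur in its processed pseudogene *Gm18860*, which had 63, 47 and 84 counts in control and 73, 94 and 82 with quercetin. *Cnot1* shares 4.65% of its words with the processed pseudogene *Gm6158*, which had between 5 and 12 counts in a pool. Of the exon length of *Cnot7*, 4.24% overlaps *Zdhhc2* on the opposite strand, which had between 370 (control pool 2) and 668 (quercetin pool 2) counts. Antisense overlaps cover 0.769% of *Cnot1*, with *4930513N10Rik* (7, 11 and 11 counts in control, 2, 3 and 15 with quercetin), and 2.98% of *Zfp36l2*, with *AC132455.1*. *Btg4* and *Cnot6l* share no 31-base word with another gene, and *Cnot6*, *Pan2*, *Pan3* and *Parn* share between 0.385% and 1.34% of theirs.

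The cytoplasmic polyadenylation element, the site bound by CPEB1, is a feature that can bear on the storage of an mRNA. Its letters TTTTAT or TTTTAAT were searched on the transcript strand in the last 100 bases of the 3′ UTR of each gene's principal transcript in GENCODE M21. They occurred in 6 of the 10 genes, beside 17.8% of 19938 genes with such a window (13.8% for TTTTAT and 5.04% for TTTTAAT). *Btg4*, *Cnot1* and *Cnot7* held TTTTAT once, *Pan2* held it 3 times, and *Cnot8* and *Pan3* held TTTTAAT. A match is a description and not a site. A polyadenylation signal, AATAAA or ATTAAA, lay in the same windows of *Cnot6l*, *Cnot7*, *Cnot8*, *Zfp36l2*, *Pan2*, *Pan3* and *Parn*, beside 78.2% of genes. The windows of *Btg4*, *Cnot1* and *Cnot6* held neither, so the matches in *Btg4* and *Cnot1* lay without a signal in the window. Whether these annotated ends are the ones used in oocytes was not tested. In genes with both, the match nearest to the last signal began 8 (*Pan2*), 9 (*Cnot7*), 14 (*Cnot8*) or 20 (*Pan3*) bases before it.

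The 30 bases around the matches are shown so that the element and the letters beside it can be compared between genes. Sequences run 5′ to 3′ on the transcript strand of GRCm38, with the matched letters in capitals, and all lie in 3′ UTR exons. They are chr9:51119797-51119826 on the plus strand for *Btg4*, chr8:95719504-95719533 on the minus strand for *Cnot1*, chr8:40493038-40493067 on the minus strand for *Cnot7*, chr11:58118546-58118575 on the plus strand for *Cnot8*, chr10:128321305-128321334 on the plus strand for *Pan2* and chr5:147548460-147548489 on the plus strand for *Pan3*. In *Pan3* the matched letters run into an AATAAA signal that begins within them.
Btg4: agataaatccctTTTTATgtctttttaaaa
Cnot1: aagatgtattgaTTTTATatatgtgagtac
Cnot7: tcttaaggtacaTTTTATatcaataaaaat
Cnot8: attatttatgtTTTTAATtttgtaaaataa
Pan2: taaaacagcatgTTTTATaaaataaaagta
Pan3: atagcagtattTTTTAATaaagaattgcag

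The rest of the pathway was followed in 7 lists of 51 genes, of which 47 were tested. The edgeR test called 0 of the 47, and 3 had an unadjusted p under 0.05 (*Cnot3*, *Rc3h1* and *Angel2*; 6.38%, beside the 4.03% of all genes). *Cnot3* alone kept such a p with each pool left out in turn, while *Rc3h1* and *Angel2* kept it in 2 of those 6 fits each. With library size alone as scaling the genes at such a p were *Cnot3* and *Khsrp*. The estimates were positive for 16 and negative for 31, with a median log2 fold change of -0.12, and with library size alone as scaling for 11 and 36. Without control pool 2 they were positive for 22 and negative for 25, and leaving out each pool in turn gave medians from -0.13 to -0.050. The pools did not overlap for 4 genes that were higher (*Cnot2*, *Ythdf2*, *Rc3h1* and *Angel2*) and 3 that were lower with quercetin (*Cnot3*, *Tob2* and *Khsrp*), beside 5.42% and 5.17% of all tested genes. Without quercetin pool 3 the count at an unadjusted p under 0.05 was 8 of 47, while the share of all genes was 12.8%. It was 5 of 47 without control pool 1 (3.93% of all genes), 1 without control pool 2 (1.98%), 2 without control pool 3 (3.51%), 2 without quercetin pool 1 (3.05%) and 1 without quercetin pool 2 (2.64%).

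**Figure D3:**
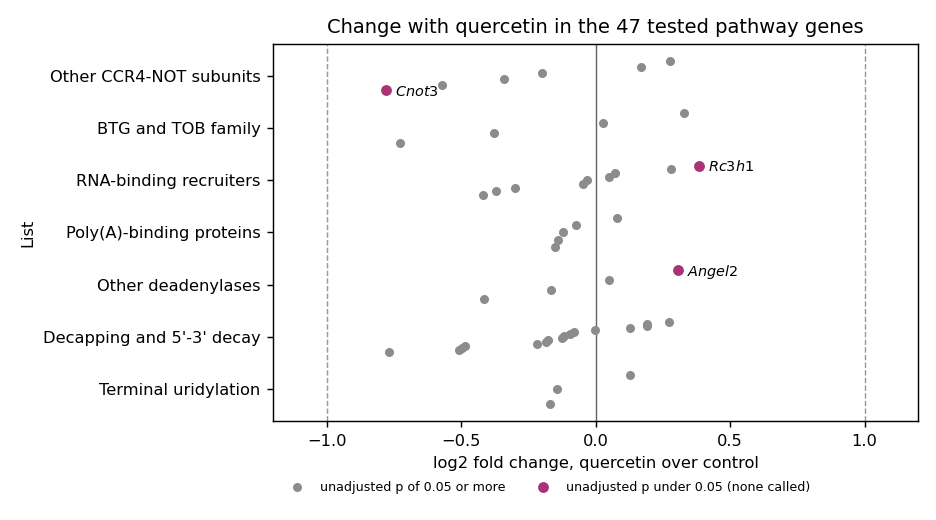
Log2 fold change of quercetin over control for the 47 tested pathway genes on the horizontal axis, a point for each gene in rows for the 7 lists, with dashed lines at a fold change of 2. Named points mark the 3 genes with an unadjusted p under 0.05 in edgeR, of which *Cnot3* is the lowest at -0.78, and 0 genes were called.

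Among the other CCR4-NOT subunits, 2 of 6 had positive and 4 negative estimates. *Cnot3*, which with CNOT2 forms a regulatory module of the complex, had 736, 676 and 693 counts in control pools 1 to 3 and 338, 390 and 472 counts in quercetin pools 1 to 3. Every quercetin pool lay below every control pool. The means were 80.6 ± 2.38 CPM in control and 46.9 ± 7.51 CPM with quercetin (SD, n = 3 each), a log2 fold change of -0.78 ± 0.17 (SE) with an unadjusted p of 0.00127, which did not pass the adjustment over all genes (edgeR adjusted p = 0.792). Leaving out each pool in turn gave values from -0.92 to -0.71. Its partner *Cnot2* was estimated at 0.27 ± 0.16 (SE) and the ubiquitin ligase gene *Cnot4* at -0.34 ± 0.19 (SE) on the log2 scale. The highest of these subunits was *Cnot9* at 76.1 CPM per kb, with a log2 fold change of 0.17.

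In the BTG and TOB family 4 of 5 genes were tested, 2 with positive and 2 with negative estimates. *Btg1* was the highest at 16.1 CPM per kb (log2 fold change 0.33 ± 0.27, SE), far under the 4422 CPM per kb of *Btg4*. *Tob1* and *Tob2*, adaptors that join CCR4-NOT to poly(A)-binding protein, were estimated at -0.73 ± 0.65 and -0.38 ± 0.21 (SE). With each pool left out in turn, *Tob1* ran from -1.29 to -0.24 and *Btg1* from 0.12 to 0.63. *Btg3* was not tested, with between 3 and 7 counts in a pool.

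The RNA-binding recruiters, which tie deadenylation to particular mRNAs, gave 4 positive and 5 negative estimates among 9 tested of 11 genes. *Rc3h1* (Roquin-1, a stem-loop binding protein) had 514, 443 and 432 counts in control pools 1 to 3 and 597, 624 and 554 counts in quercetin pools 1 to 3. Its quercetin pools all lay above the controls, with a log2 fold change of 0.39 ± 0.16 (SE, unadjusted p = 0.0369, edgeR adjusted p = 0.988). *Ythdf2*, a reader of m6A-marked mRNA and the highest of the list at 26.5 CPM per kb, stood at 0.28 ± 0.14 (SE), and *Khsrp*, which binds AU-rich elements, at -0.42 ± 0.21 (SE). Of the paralogues of *Zfp36l2*, *Zfp36* had between 24 and 49 counts in a pool (1.11 CPM per kb, log2 fold change -0.30 ± 0.31, SE). This estimate was -0.058 without control pool 3, which had the 49 counts. *Zfp36l1* was at 0 counts in all pools but quercetin pools 2 and 3, with 2 counts each, and *Zfp36l3* at 0 counts in all 6 pools.

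Poly(A)-binding proteins cover the tails that these enzymes remove. *Pabpn1l*, the oocyte form known to work with BTG4, was at 365 CPM per kb, close to *Cnot7*, and had 3056, 3317 and 4695 counts in control pools 1 to 3 and 3420, 4393 and 3661 counts in quercetin pools 1 to 3. Control pools held both the lowest and the highest count, and the log2 fold change was 0.079 ± 0.18 (SE). *Pabpc4* (-0.074 ± 0.15, SE) and *Pabpn1* (-0.14 ± 0.28, SE) also did not pass, and 1 of 5 estimates in the list was positive.

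Of the genes listed as other deadenylases 4 of 5 were tested, 2 with positive and 2 with negative estimates. Whether the product of each gene in this list shortens poly(A) tails was not measured. *Angel2*, from a family related to the CCR4-type nucleases, was at 125 CPM per kb, between *Cnot7* and *Cnot6l* in level. It had 6052, 4857 and 5284 counts in control pools 1 to 3 and 6466, 6952 and 6158 counts in quercetin pools 1 to 3, with all quercetin pools above the controls. The log2 fold change of 0.31 ± 0.13 (SE) did not pass the adjustment (unadjusted p = 0.0455, edgeR adjusted p = 0.988). *Pde12*, a mitochondrial nuclease, and *Angel1* were estimated at -0.42 ± 0.24 and -0.17 ± 0.21 (SE), and *Toe1* had between 8 and 15 counts in a pool and was not tested.

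All 16 genes of decapping and decay from the 5′ end were tested, with 4 positive and 12 negative estimates. *Dcp2*, the catalytic decapping enzyme, had 1318, 1424 and 1517 counts in control pools 1 to 3 and 683, 817 and 1433 counts in quercetin pools 1 to 3. Quercetin pools 1 and 2 lay below all controls and quercetin pool 3 among them, with a log2 fold change of -0.51 ± 0.26 (SE, edgeR adjusted p = 0.988). It was -0.90 without quercetin pool 3 (edgeR adjusted p = 0.145) and -0.34 without quercetin pool 1. *Edc4*, a decapping scaffold, stood at 0.27 ± 0.17 (SE) and *Lsm5* at -0.77 ± 0.52 (SE). The *Lsm5* estimate rested on control pool 2, with 177 counts against 47 and 74 in control pools 1 and 3, and was 0.0038 without it. *Lsm1*, a subunit of the same ring that binds deadenylated mRNA, was the highest of the list at 102 CPM per kb. Of the 3 genes for terminal uridylation and decay of uridylated RNA, *Tut7* was the highest at 2.27 CPM per kb. It was estimated at -0.17 ± 0.24 (SE), *Tut4* at 0.13 ± 0.41 (SE) and the exonuclease gene *Dis3l2* at -0.15 ± 0.35 (SE).

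The labelled cell type was checked against markers. All 10 oocyte markers were tested, with *Dppa3* the most abundant at 9609 CPM per kb. Their summed level was 24252, 27692 and 26099 CPM in control pools 1 to 3 and 27298, 29374 and 25588 CPM in quercetin pools 1 to 3. The groups overlapped in this sum, which does not show the spread of single markers. *Zp2*, named after its values were seen, had 1990, 12980 and 5601 counts in control and 1045, 7734 and 11260 with quercetin. Its highest pool in CPM was 11.9-fold its lowest, beside 3.26-fold for *Zp1* and 3.55-fold for *Zp3*. Quercetin pool 1 was the lowest for each of these genes. Of 12 cumulus and granulosa markers 5 were tested, and *Ptx3*, *Amh* and *Foxl2* were at 0 counts in every pool. The summed level of that list was 101, 82.0 and 97.2 CPM in control and 109, 109.7 and 108 CPM with quercetin, higher in all quercetin pools. *Cyp19a1*, its most abundant gene at 15.4 CPM per kb, made up most of this sum in every pool. It was at 65.5, 58.4 and 68.9 CPM in control and 74.9, 75.9 and 73.1 CPM with quercetin, so the sum mainly describes that gene. The markers that follow were named after their values were seen. Of the 5 tested, 4 had positive estimates and 1 negative. The pools of *Cyp19a1* and *Kitl* lay wholly above the controls, 2 of 5 beside 5.42% of all tested genes. *Kitl* had 71, 64 and 77 counts in control and 95, 112 and 106 with quercetin. Its log2 fold change was 0.59 ± 0.21 (SE, edgeR unadjusted p = 0.0209, edgeR adjusted p = 0.988). *Tnfaip6*, which was not tested, had 0 counts in all control pools and 2, 8 and 4 with quercetin. *Ptgs2*, the marker with a negative estimate, had 31, 11 and 13 counts in control and 11, 4 and 18 with quercetin (log2 fold change -0.68 ± 0.61, SE), and *Fshr*, not tested, had 18, 8 and 9 against 6, 7 and 13. Of the oocyte markers 6 had positive and 4 negative estimates. *Gdf9* alone among them was separate, with all quercetin pools above the controls (log2 fold change 0.22 ± 0.14, SE), 1 of 10 beside 5.42% of all tested genes. *Ooep*, whose pools overlapped, had 4367, 8081 and 6157 counts in control and 1885, 2454 and 5410 with quercetin. Its log2 fold change was -0.92 ± 0.38 (SE, edgeR unadjusted p = 0.0412, edgeR adjusted p = 0.988). The blood markers *Hbb-bs* and *Hba-a1* were at 0 counts in every pool, and *Ptprc* had at most 5 counts in a pool. The part of these levels in the values of the deadenylation genes was not tested.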

How the data were processed

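RNA sequencing of 6 pools was used, grouped by the sample labels into 3 control and 3 quercetin pools. The Smart-seq HT kit (oligo(dT)-primed, full-length cDNA) gave libraries for an Illumina NovaSeq instrument. The authors deposited raw read counts per Ensembl gene. The study's methods name Hisat2 and GRCm38, whereas the submitters' processing notes name TopHat2 2.0.6, CASAVA 1.8 and GRCm38 (mm10). The counting program and its settings are not given in the sources used here.

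Total counts per pool ran from 7880467 to 9938743. Genes passing filterByExpr (minimum count 10; 11842 of 24476 with a count) were scaled by TMM and fitted with edgeR 4.0.16 under R 4.3.3 (quasi-likelihood test without covariates). P-values were adjusted across the tested genes by the method of Benjamini and Hochberg. The fit was tested on simulated data. CPM used TMM-scaled library sizes of tested genes, and level per kb the union of GENCODE M21 exons. Exact permutation tests used log2(CPM + 0.01) or log2 ratios of counts per kb. P-values measure the spread between these pools.

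Also tried were limma 3.58.1 (voom), the likelihood ratio test of edgeR, DESeq2 1.42.0, other scalings and filters, unadjusted p-values, other lengths, each pool left out and a replicate block. Named are all 10 genes, from each list the 3 tested genes of smallest unadjusted p, the highest per kb and untested genes, the most abundant markers and those at 0, and genes overlapping or sharing sequence with a member. Others were chosen after their values were seen. The sequence motifs were also chosen after seeing the data, and members and lists with earlier results of these data known. Annotation and plots used Python 3.11.15 (pandas 2.3.3, numpy 2.4.6, matplotlib 3.10.9).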

Additional observations from a re-analysis of the deposited data

How the results depend on the processing

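Depth limited *Zfp36l2*, which had from 3 to 10 counts in a pool and was left out of the test. The members called and the pathway genes called numbered 0 under every alternative run. Across the table edgeR's 0 calls became 12 with DESeq2 (5 higher, 7 lower), 16 with the likelihood ratio test (6 and 10), 3 without a filter (2 and 1) and 103 with unadjusted p-values (31 and 72), and stayed at 0 with limma-voom, other scalings and at least 10 counts in every pool. Leaving out each pool in turn gave from 0 to 7 calls across the table, from 0 to 3 members at an unadjusted p under 0.05, from 0 to 6 members whose pools did not overlap, and a member median from 0.099 to 0.22. With library size alone, 1 member (*Cnot8*, higher) did not overlap, beside 3.88% of all genes. Of 126 alternative estimates of the tested members, 115 kept their direction and 11, of 4 genes, reversed. *Parn* was 0.016 with DESeq2, 0.016 with its size factors and 0.0078 without a filter. Leaving out each pool gave ranges from -0.23 to 0.13 for *Parn*, from -0.86 to 0.14 for *Cnot1*, from -0.0059 to 0.22 for *Pan2*, from -0.18 to 0.073 for *Cnot6*, from 0.0026 to 0.28 for *Btg4*, from 0.088 to 0.27 for *Cnot6l*, from 0.18 to 0.46 for *Cnot7*, from 0.21 to 0.40 for *Cnot8* and from 0.16 to 0.54 for *Pan3*, and from -0.051 to 0.053 for the difference in the log2 ratio of *Cnot7* to *Cnot8* and from 0.15 to 0.38 for that of *Cnot6l* to *Cnot6*. Of the 47 tested pathway genes, 20 changed sign when some pool was left out and 27 did not. Among the 20 were *Lsm5*, *Pabpn1* (0.11 without control pool 1), *Pabpn1l* (-0.050 without control pool 1), *Tut4* (-0.17 without quercetin pool 2) and *Dis3l2* (0.095 without quercetin pool 2). Further pathway estimates in the text kept their sign over these fits, and several of them ranged from 0.18 to 0.35 (*Cnot2*), -0.55 to -0.23 (*Cnot4*), 0.080 to 0.29 (*Cnot9*), -0.51 to -0.27 (*Khsrp*), -0.10 to -0.0054 (*Pabpc4*), -0.31 to -0.044 (*Angel1*), 0.15 to 0.37 (*Edc4*) and -0.43 to -0.046 (*Tut7*). The cause of these changes was not tested. The smallest adjusted p of a member under any alternative was 0.251, in edgeR without quercetin pool 3. With the replicate number as a replicate block, 0 genes and 0 members were called and the member median was 0.13. Pools of the same number correlated at 0.296, 0.101 and -0.030 in their deviations from the group means. The mean for pools of different numbers was -0.061, and 3 of 6 pools correlated best with their own number. The main fit did not pair the pools by number.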

Other observations

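Several further decay genes, named after their values were seen, had low counts in quercetin pools 1 and 2 and counts near or above the controls in quercetin pool 3. *Xrn1*, the exonuclease that degrades decapped mRNA from its 5′ end, had 364, 354 and 365 counts in control pools 1 to 3 and 197, 242 and 494 counts in quercetin pools 1 to 3. *Cnot4* had 1012, 1019 and 1105 counts in control and 632, 768 and 1029 counts with quercetin. *Tut7* had 347, 312 and 263 counts in control and 206, 242 and 356 counts with quercetin. The groups overlapped in CPM for each of these genes. Without quercetin pool 3, 8 of 47 pathway genes lay wholly below the controls, beside 17.4% of all genes. Another 8 lay wholly above them, beside 14.3% of all genes (*Cnot2*, *Cnot9*, *Ythdf2*, *Rc3h1*, *Noct*, *Angel2*, *Patl1* and *Lsm1*).

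Within CCR4-NOT, the levels of the non-catalytic subunits per kilobase also spread widely. *Cnot10*, which forms a module with CNOT11, had 7, 29 and 26 counts in control pools 1 to 3 and 6, 8 and 27 counts in quercetin pools 1 to 3, and stood at 0.302 CPM per kb. *Cnot11* stood at 22.1 CPM per kb. *Noct*, listed with the other deadenylases and related to the CCR4-type enzymes, was at 52.2 CPM per kb. That was under *Cnot8* at 79.0 CPM per kb and above *Pan2* at 18.8 CPM per kb.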
